A study of Mus musculus with 35 samples.

Results

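Microglia genes were followed here in RNA-seq of the mouse striatum. They are 34 genes chosen by symbol, as rows of the count table whose name is a known microglial marker, receptor, regulator or effector, among 39109 entries in all. The striata came from 35 mice aged 21.71 to 23 weeks, with 1 library per mouse. Htt+/+ mice carry wild-type huntingtin alleles, and HttQ111/+ mice carry 1 knock-in allele with an expanded CAG repeat of 110 to 144 units. Hdac2 KO mice were homozygous for a floxed Hdac2 allele and carried D9-Cre, a Cre transgene under a fragment of the Ppp1r1b (DARPP-32) gene, which deletes Hdac2 in medium-spiny neurons (MSNs) after the first postnatal weeks. Hdac2 WT mice carried no Cre, and the study's sample sheet lists most of them as homozygous for the floxed allele. There were 8 libraries of Htt+/+ Hdac2 WT, 7 of HttQ111/+ Hdac2 WT, 9 of Htt+/+ Hdac2 KO and 11 of HttQ111/+ Hdac2 KO. The Htt knock-in line is on C57BL/6J and the floxed line was made on a mixed background. Because no Cre-positive mouse kept Hdac2 in MSNs, deletion of Hdac2 and presence of the transgene cannot be told apart.

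Microglia are the resident macrophages of brain parenchyma. They arise from the yolk sac, depend on signalling through the CSF1 receptor and hold their identity under the transcription factors PU.1 (Spi1), IRF8, RUNX1 and SALL1. Neurons hold them in check through ligands such as fractalkine (Cx3cl1) and CD200. Microglia do not express Ppp1r1b, and are not among the cells in which the transgene is meant to act.

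The labels were checked first on Hdac2 itself. Its level, in CPM (counts scaled by TMM to libraries of equal size), ran from 97.6 to 107 in Htt+/+ Hdac2 WT, 95.5 to 111 in HttQ111/+ Hdac2 WT, 89.4 to 99.2 in Htt+/+ Hdac2 KO and 89.8 to 101 in HttQ111/+ Hdac2 KO. The KO groups sat lower with some overlap, by -0.09 ± 0.032 (log2 fold change ± SE, edgeR adjusted p = 0.0552) in Htt+/+ and -0.12 ± 0.028 (edgeR adjusted p = 0.00198) in HttQ111/+ mice. The counts cover the whole gene, of which Cre removes some exons, so they check the labels only in part. Hdac1, its close relative, rose by 0.54 ± 0.067 and 0.49 ± 0.059 (edgeR adjusted p = 7.35e-07 and 5.49e-07). Libraries held 50970712 to 77867348 counts (median 57322618).

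Promoters are shown for 4 members, because the results turn on Irf8, Inpp5d and Fcrls, and Ctss had the highest level per length. Each run is 300 bases, 250 before and 50 from the RefSeq start site (GRCm38.p6), read 5′ to 3′ on the gene's strand. Capitals mark exact matches to GAGGAAGT, a PU.1 site (on the other strand, ACTTCCTC), or to an interferon regulatory factor (IRF) site, GAAA and again GAAA with 2 bases of any kind between.
Irf8 (chr8:120736108-120736407, plus strand): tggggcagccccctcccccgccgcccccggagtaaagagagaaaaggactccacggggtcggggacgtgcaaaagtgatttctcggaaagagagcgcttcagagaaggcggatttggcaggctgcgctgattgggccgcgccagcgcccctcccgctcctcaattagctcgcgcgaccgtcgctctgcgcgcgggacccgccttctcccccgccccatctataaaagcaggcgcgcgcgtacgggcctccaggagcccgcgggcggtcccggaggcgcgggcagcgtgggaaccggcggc
Inpp5d (chr1:87620062-87620361, plus strand): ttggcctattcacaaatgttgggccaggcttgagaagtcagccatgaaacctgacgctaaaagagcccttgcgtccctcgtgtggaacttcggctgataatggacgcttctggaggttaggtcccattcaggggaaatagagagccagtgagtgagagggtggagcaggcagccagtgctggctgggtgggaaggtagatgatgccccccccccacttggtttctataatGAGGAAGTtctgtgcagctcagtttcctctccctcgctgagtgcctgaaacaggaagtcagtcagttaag
Fcrls (chr3:87263475-87263774, minus strand): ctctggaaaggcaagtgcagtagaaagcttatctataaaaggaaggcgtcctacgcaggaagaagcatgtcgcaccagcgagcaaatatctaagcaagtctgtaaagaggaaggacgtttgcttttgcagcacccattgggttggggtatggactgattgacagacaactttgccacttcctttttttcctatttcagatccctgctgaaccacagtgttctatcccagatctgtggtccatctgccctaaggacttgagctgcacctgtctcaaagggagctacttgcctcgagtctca
Ctss (chr3:95526536-95526835, plus strand): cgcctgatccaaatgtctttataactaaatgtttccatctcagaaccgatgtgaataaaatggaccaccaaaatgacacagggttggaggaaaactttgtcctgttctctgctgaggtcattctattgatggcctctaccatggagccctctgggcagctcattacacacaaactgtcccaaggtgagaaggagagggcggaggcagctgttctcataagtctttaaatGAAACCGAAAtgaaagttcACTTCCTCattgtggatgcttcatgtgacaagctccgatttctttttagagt

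Inpp5d held a PU.1 match starting 20 bases before the start site. Ctss held an IRF match 21 bases and a PU.1 match 2 bases before it. The Irf8 and Fcrls windows held no match to the 3 motifs searched. The Irf8 window printed was 70% G and C with 38 CpG pairs, against medians of 53.3% and 6 over the members' windows and 52.7% and 7 over all 32851 windows. Another RefSeq window of Irf8, at a start site inside the gene and not printed, was 54.7% G and C with 8 CpG pairs. Windows were found for 27 of the 34 members (33 windows). PU.1 matched in 4 of them (12.1%; Inpp5d, Ctss, Cd53 and C1qc) and in 3.2% of all windows, with both strands searched. The IRF motif matched in 2 (6.06%; Ctss and Aif1) against 3.44%, and the composite of GGAA and GAAA with 2 bases between, which PU.1 and an IRF can share, in 1 (3.03%; Cd68) against 2.72%. A match is a run of letters and was not tested as a binding site.

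All 34 microglia genes were detected in each of the 35 libraries and passed the count filter in each comparison. Their summed level was 895 to 1141 CPM (median 1016) in Htt+/+ Hdac2 WT, 895 to 1100 (median 987) in HttQ111/+ Hdac2 WT, 1041 to 1300 (median 1116) in Htt+/+ Hdac2 KO and 941 to 1208 (median 1037) in HttQ111/+ Hdac2 KO. These groups overlapped, and the sum was between 0.0895 and 0.130% of the scaled counts. In whole striatum, fewer microglia and less RNA per microglial cell cannot be told apart. The first principal component of the 34 genes over the 35 libraries held 50.3% of their variance and the second 7.46%.

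Levels between genes were compared per length, as mean CPM per kilobase of exon over the 35 libraries. Ctss, the endosomal protease cathepsin S, stood first at 72.3. C1qb and C1qa, chains of the complement recognition protein C1q, followed at 52.2 and 47.4. Csf1r, the receptor on which microglial survival depends, stood at 26.4, P2ry12, an ADP receptor of resting microglia, at 24.4, and C1qc at 24.1. The high end thus held proteolysis, complement and the surface receptors that define homeostatic microglia. Transcription factors lay low on this scale, with Sall1 at 6.51, Spi1 at 1.18, Irf8 at 0.882 and Runx1 last at 0.118. Counting included introns, which lifts long genes and is not removed by dividing by exon length.

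Spread over the 35 libraries differed among the members. Fcrls, an Fc receptor-like protein found on mouse microglia and not on blood monocytes, varied most, with a highest library 4.11 times the lowest. Irf8, which drives macrophage and microglial maturation, followed at 3.08 and Mertk, a receptor kinase for engulfing apoptotic cells, at 2.79. Runx1 at 2.42 and Itgam at 2.22 came next. The steadiest was Gpr34, a receptor for lysophosphatidylserine, at 1.38.

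**Figure D1:**
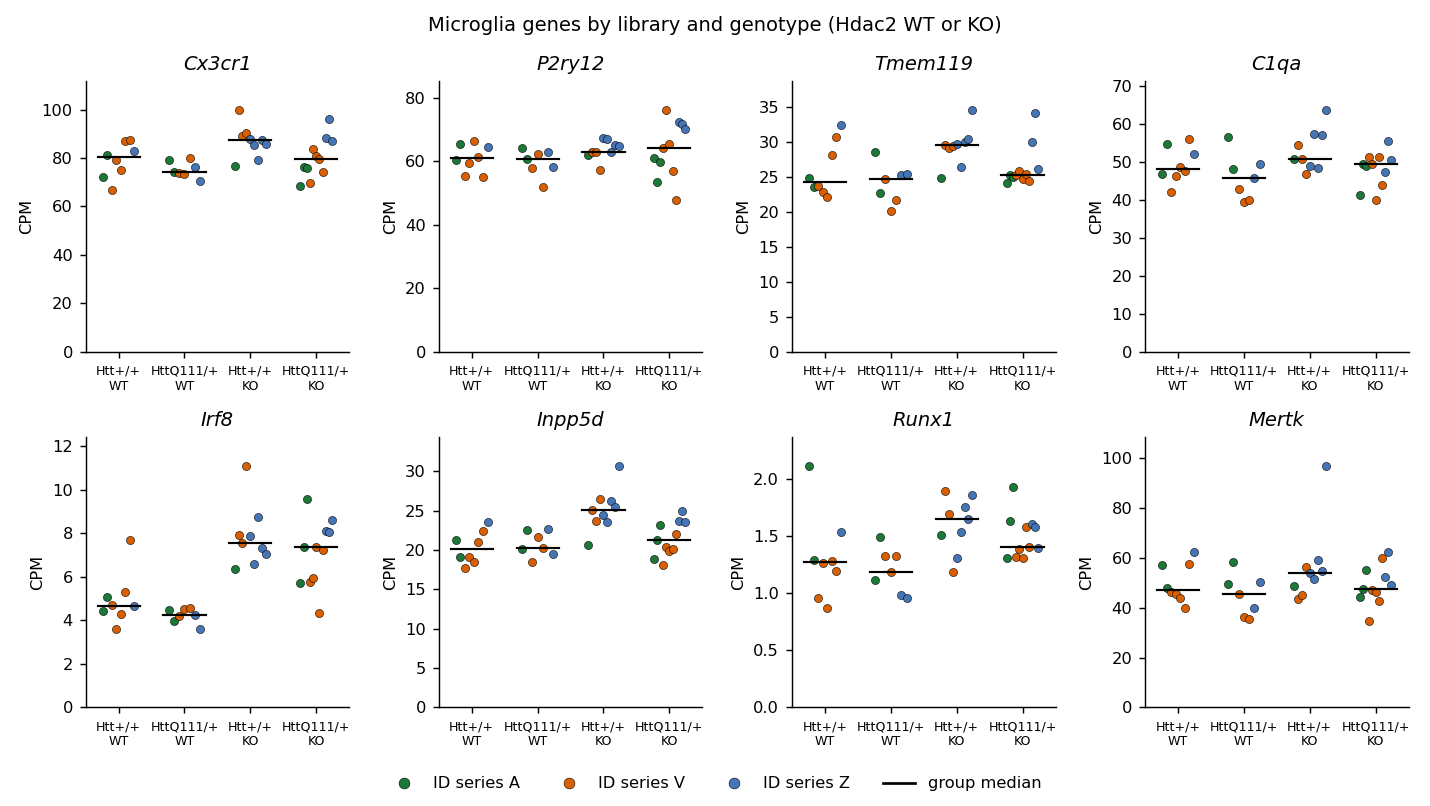
Level (CPM, linear axis from 0) of 8 microglia genes in each library, in 4 genotype groups. Points are libraries coloured by the first letter of the mouse ID and lines are group medians. Irf8 sits near 4 to 5 CPM in most Hdac2 WT libraries and mostly above in Hdac2 KO libraries, while Cx3cr1, P2ry12, Tmem119 and C1qa overlap among the groups.

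The comparison of Hdac2 KO with Hdac2 WT asked what deleting Hdac2 in MSNs does to the striatal transcriptome. In Htt+/+ mice 2 of the 34 microglia genes rose, Irf8 and Inpp5d, and 0 fell. Over all genes tested 17.8% passed the adjusted threshold of 0.05 (3056 of 17126), so the members' count lay below that share. The median log2 fold change of the members was -0.01, against -0.00 over all genes, with 13 of 34 above 0. Another 2 had a nominal p below 0.05 (4 of 34 in all, against 29.0% of all genes). In HttQ111/+ mice Irf8 and Mertk rose and Fcrls and Itgam fell, 4 of 34 against 16.5% of all genes (2841 of 17169), and the median was -0.00. These values come from edgeR's quasi-likelihood test with 9 surrogate variables, which stand for variation between libraries beyond the group means, labelled or not.

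Irf8 (chr8:120736358-120755204, plus strand, GRCm38) was the member that rose in both Htt backgrounds. Its level lay between 3.60 and 7.70 CPM (median 4.67) in Htt+/+ Hdac2 WT and between 3.59 and 4.57 (median 4.23) in HttQ111/+ Hdac2 WT. In the KO groups it lay between 6.36 and 11.1 (median 7.54) on Htt+/+ and between 4.34 and 9.55 (median 7.37) on HttQ111/+. The groups overlapped through 1 high Hdac2 WT library at 7.70 and a few low KO libraries. Of the 20 KO libraries 8 lay above every Hdac2 WT library and 19 above the Hdac2 WT median. The fitted rise was 0.61 ± 0.12 (log2, edgeR adjusted p = 2.91e-04) in Htt+/+ and 0.57 ± 0.11 (edgeR adjusted p = 2.39e-04) in HttQ111/+ mice. Averaged over both backgrounds it was 0.59 ± 0.087 (edgeR adjusted p = 4.54e-06). Irf8 lies inside the interval of Gm20388, a gene on the same strand, whose whole-interval count takes in the same reads. Reads from Gm20388 transcripts that fall in the Irf8 interval would likewise be counted for Irf8. The mean counts were 353 for Irf8 and 3799 for Gm20388, and the part of such reads in the rise was not tested.

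Inpp5d, which encodes the phosphatase SHIP1, a brake on signalling from TREM2 and Fc receptors, rose on Htt+/+ alone by the adjusted threshold. The gene spans chr1:87620312-87720502 on the plus strand. Its level was 17.7 to 23.5 CPM (median 20.1) in Htt+/+ Hdac2 WT, 18.5 to 22.6 (median 20.2) in HttQ111/+ Hdac2 WT, 20.6 to 30.7 (median 25.1) in Htt+/+ Hdac2 KO and 18.1 to 25.0 (median 21.2) in HttQ111/+ Hdac2 KO. High libraries were mostly Htt+/+ Hdac2 KO ones, and the HttQ111/+ Hdac2 KO group overlapped both WT groups. The change was 0.23 ± 0.050 (edgeR adjusted p = 0.00119) in Htt+/+ and 0.00 ± 0.044 (edgeR adjusted p = 0.984) in HttQ111/+ mice. The difference between these effects, -0.22 ± 0.058, had a nominal p of 7.01e-04 and an edgeR adjusted p of 0.549, so it did not pass over all genes.

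Fcrls (chr3:87250758-87263738, minus strand) was the member with the largest fall. It ranged from 13.3 to 39.5 CPM (median 22.0) in Htt+/+ Hdac2 WT, 14.5 to 38.0 (median 27.2) in HttQ111/+ Hdac2 WT, 13 to 37.9 (median 26.4) in Htt+/+ Hdac2 KO and 9.61 to 31.2 (median 23.7) in HttQ111/+ Hdac2 KO. The 4 groups overlapped over most of their range. The fit gave -0.56 ± 0.13 (edgeR adjusted p = 0.00327) in HttQ111/+ and -0.13 ± 0.15 (edgeR adjusted p = 0.642) in Htt+/+ mice. Without surrogate variables the HttQ111/+ value was -0.22 ± 0.25 (edgeR adjusted p = 0.632), and with extraction date it turned to 0.58 ± 0.27 (edgeR adjusted p = 0.282), so the direction of Fcrls depended on the covariates.

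Itgam encodes the integrin chain CD11b, part of complement receptor 3. It lies at chr7:128062640-128127216 on the plus strand. Its level was 27.0 to 46.0 CPM (median 33.1) in Htt+/+ Hdac2 WT, 30.6 to 47.7 (median 37.5) in HttQ111/+ Hdac2 WT, 35.0 to 52.9 (median 42.6) in Htt+/+ Hdac2 KO and 23.8 to 47.4 (median 42.3) in HttQ111/+ Hdac2 KO. The KO medians were the higher ones, while the fit with surrogate variables gave -0.19 ± 0.055 (edgeR adjusted p = 0.0182) in HttQ111/+ mice. Without them the value was 0.03 ± 0.12 (edgeR adjusted p = 0.904), so the direction of Itgam depended on the covariates.

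Mertk (chr2:128698956-128802678, plus strand) rose by 0.17 ± 0.055 (edgeR adjusted p = 0.0342) in HttQ111/+ mice. Its medians were 47.1 CPM in Htt+/+ Hdac2 WT, 45.4 in HttQ111/+ Hdac2 WT, 54.0 in Htt+/+ Hdac2 KO and 47.7 in HttQ111/+ Hdac2 KO, over a range of 34.7 to 97.1 in which all groups overlapped. Without Htt+/+ Hdac2 KO replicate 9, its highest library, the value in HttQ111/+ mice was 0.13 ± 0.068 (edgeR adjusted p = 0.225), and without Htt+/+ Hdac2 WT replicate 8 it was 0.16 ± 0.062 (edgeR adjusted p = 0.0881). The call of Mertk was thus lost without either library, and on average it was at 0.09 ± 0.058 (edgeR adjusted p = 0.301) and 0.11 ± 0.056 (edgeR adjusted p = 0.197) without them.

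Taking the average of the Hdac2 KO effect over both Htt backgrounds, 4 microglia genes rose and 1 fell, against 25.0% of all genes (4341 of 17346). Those that rose were Irf8, Inpp5d (0.12 ± 0.037, edgeR adjusted p = 0.0195), Mertk (0.12 ± 0.046, edgeR adjusted p = 0.0449) and Runx1 (0.38 ± 0.12, edgeR adjusted p = 0.0226), and Fcrls fell by 0.34 ± 0.11 on the log2 scale (edgeR adjusted p = 0.0205). With extraction date as the covariate Fcrls was at 0.69 ± 0.23 (edgeR adjusted p = 0.0767), the opposite direction, and its call held in 8 of 15 alternatives. Runx1 is a transcription factor of myeloid development, active in immature microglia. It lies at chr16:92601467-92826066 on the minus strand. Its level was the lowest of the members, 0.876 to 2.12 CPM in Hdac2 WT and 1.19 to 1.93 in Hdac2 KO libraries. Although 19 of 20 KO libraries lay above the Hdac2 WT median, 0 lay above every Hdac2 WT library. Without Htt+/+ Hdac2 WT replicate 8 only Irf8 and Inpp5d passed, and Fcrls was at -0.28 ± 0.11 (edgeR adjusted p = 0.0719) and Runx1 at 0.31 ± 0.14 (edgeR adjusted p = 0.109).

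Group levels of the defining markers were close, and are given in the order Htt+/+ Hdac2 WT, HttQ111/+ Hdac2 WT, Htt+/+ Hdac2 KO and HttQ111/+ Hdac2 KO. Cx3cr1 was at 66.8 to 87.3 (median 80.3), 70.5 to 79.9 (median 74.2), 76.7 to 99.8 (median 87.5) and 68.5 to 96.1 (median 79.4) CPM. P2ry12 was at 55.0 to 66.4 (median 60.9), 52.0 to 64.2 (median 60.8), 57.3 to 67.2 (median 63.0) and 47.9 to 76.1 (median 64.2) CPM. Tmem119 was at 22.1 to 32.5 (median 24.3), 20.1 to 28.6 (median 24.7), 24.9 to 34.6 (median 29.6) and 24.1 to 34.2 (median 25.3) CPM. These 3 surface proteins of resting microglia had overlapping groups and their highest median in a KO group. For Csf1r the levels were 131 to 170 (median 150), 128 to 152 (median 139), 146 to 194 (median 167) and 132 to 178 (median 155). C1qa was at 42.0 to 56.1 (median 48.2), 39.6 to 56.5 (median 45.9), 46.9 to 63.7 (median 50.9) and 39.9 to 55.6 (median 49.5). C1qb was at 47.9 to 65.3 (median 56.9), 46.2 to 62.6 (median 54.5), 54.7 to 72.1 (median 60.3) and 48.5 to 63.2 (median 57.2). The groups overlapped for all 3 genes, which shared the order of medians, highest in Htt+/+ Hdac2 KO and lowest in HttQ111/+ Hdac2 WT. C1qc, at 39.9 to 51.6 (median 45.7), 35.7 to 51.5 (median 44.7), 43.9 to 61.8 (median 49.7) and 40.6 to 49.2 (median 46.5), had the same order. Trem2 was at 14.6 to 19.3 (median 16.4), 14.2 to 19.9 (median 16.8), 16.3 to 20 (median 18.2) and 15 to 21.0 (median 17.9). Tyrobp was at 12.6 to 17.0 (median 15), 13.3 to 15.6 (median 14.4), 15.1 to 17.3 (median 15.9) and 14.1 to 18.0 (median 16.0). For this receptor, its adaptor and C1qc the groups again overlapped. Spi1, the gene of PU.1, was at 2.40 to 3.53 (median 2.75), 2.60 to 3.56 (median 2.99), 2.44 to 4.12 (median 3.61) and 2.52 to 3.92 (median 3.29), with overlap. Aif1 was at 5.75 to 6.97 (median 6.90), 5.84 to 8.32 (median 6.98), 7.01 to 8.86 (median 7.80) and 6.26 to 8.64 (median 7.11). For Aif1 each Htt+/+ Hdac2 KO library lay above each Htt+/+ Hdac2 WT library, while the HttQ111/+ groups overlapped.

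The defining markers of microglia did not pass the test of Hdac2 KO in either background. Cx3cr1, the fractalkine receptor, was at -0.02 ± 0.049 in Htt+/+ and -0.02 ± 0.044 in HttQ111/+ mice (edgeR adjusted p = 0.826 and 0.865). For Htt+/+ mice the 95% interval from the SE ran from -0.12 to 0.07 for Cx3cr1, -0.08 to 0.07 for Csf1r, -0.19 to 0.04 for P2ry12 and -0.07 to 0.19 for Tmem119, a membrane protein that separates microglia from other macrophages. Differences within these bounds are not excluded by this fit, and the bounds hold for its covariates only. The C1q genes were at -0.08 (C1qa), -0.05 (C1qb) and -0.02 (C1qc) in Htt+/+ mice and at -0.05, -0.04 and -0.05 in HttQ111/+ mice. Trem2, the lipid-sensing receptor, was at 0.00 and -0.02, and Tyrobp, its signalling adaptor, at -0.04 and 0.06. Aif1, which encodes the protein stained as IBA1, was at 0.07 ± 0.081 (edgeR adjusted p = 0.654) in Htt+/+ mice, where its groups did not overlap in CPM, and at -0.05 in HttQ111/+ mice. Without surrogate variables the Htt+/+ value was 0.23 ± 0.071 (edgeR adjusted p = 0.0172).

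By role, transcription factors held 1 called gene of 4 in each background (Irf8), with Sall1 at 0.09 ± 0.064 and 0.09 ± 0.057 and Spi1 at -0.01 ± 0.13 and -0.13 ± 0.11. Levels of Sall1, which keeps microglia from a general macrophage fate, were 29.4 to 36.5 CPM (median 31.2), 30.2 to 36.6 (32.1), 32.6 to 40.8 (33.9) and 32.6 to 40.3 (36.1) in Htt+/+ Hdac2 WT, HttQ111/+ Hdac2 WT, Htt+/+ Hdac2 KO and HttQ111/+ Hdac2 KO. All 20 KO libraries lay above its Hdac2 WT median and 8 above every Hdac2 WT library, yet the fitted difference did not pass. Of the 5 receptors for chemokine, nucleotide, lipid and complement peptide, 0 passed, C3ar1 being farthest from 0 at -0.31 ± 0.13 (edgeR adjusted p = 0.109) in Htt+/+ mice. Both cytokine receptors, the 3 lysosomal and endosomal genes (Ctss, Cd68, Laptm5) and the 8 other surface, cytoskeletal and secreted markers were also without a call. Their fold changes in Htt+/+ mice lay between -0.01 and 0.05, -0.14 and -0.01, and -0.08 and 0.07.

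The 15 members not yet given a value lay close to 0 in both backgrounds, from -0.14 (Cd68, a lysosomal glycoprotein of phagocytes) to 0.06 (Slc2a5) in Htt+/+ and from -0.11 (Olfml3) to 0.08 (Fcgr3) in HttQ111/+ mice. They were the receptors P2ry13, Gpr34 and Csf3r, the Fc receptor chain Fcer1g with Fcgr3, the lectin Siglech, the tyrosine phosphatase Ptprc (CD45), the tetraspanin Cd53, the MD-1 gene Ly86, the selectin ligand Selplg, and Olfml3, Slc2a5, Ctss, Cd68 and Laptm5. Their smallest edgeR adjusted p was 0.176 (Cd68) in Htt+/+ and 0.292 (Laptm5) in HttQ111/+ mice.

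**Figure D2:**
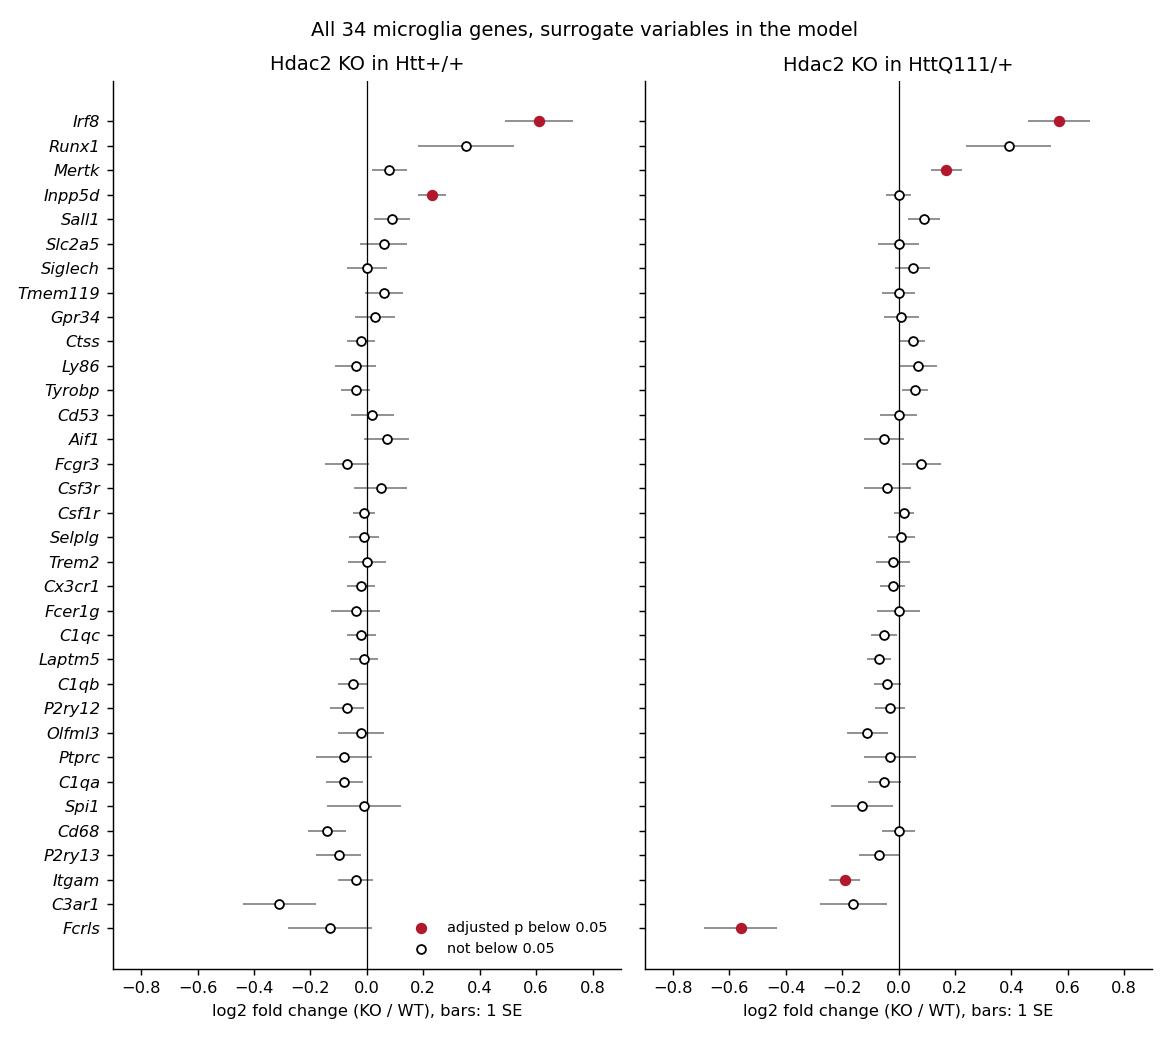
Log2 fold change of Hdac2 KO over Hdac2 WT for the 34 microglia genes in Htt+/+ mice (left, 8 against 9 libraries) and HttQ111/+ mice (right, 7 against 11), from the fit with surrogate variables. Bars are 1 SE and filled points have an adjusted p below 0.05: Irf8 in both panels, Inpp5d on the left, and Mertk, Itgam and Fcrls on the right.

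Cx3cr1 needs a remark on counting. Its interval in the annotation used (chr9:119901616-120068282) holds 3 other genes of the same strand, Gorasp1, Csrnp1 and Xirp1, whose counts made up 37.2 to 62.2% of its own. With these subtracted the medians were 37.4 CPM in Htt+/+ Hdac2 WT, 33.6 in HttQ111/+ Hdac2 WT, 46.4 in Htt+/+ Hdac2 KO and 36.7 in HttQ111/+ Hdac2 KO. The net change with Hdac2 KO was -0.08 ± 0.10 in Htt+/+ and -0.03 ± 0.092 in HttQ111/+ mice (edgeR adjusted p = 0.677 and 0.891), and did not pass either. Of the 34 members 11 overlap another gene. P2ry12 and P2ry13 lie inside Med12l on the opposite strand, and their counts together exceeded those of Med12l in 35 of 35 libraries by 1.09 to 1.91 times, which counting without strand could not give.

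The surrogate variables moved the whole set. Together, the 9 surrogate variables accounted for an R² of 0.88 of the members' mean log2 CPM, taken after scaling each gene to equal variance. The highest single one, the second, accounted for 0.32. These R² are not adjusted for the number of variables. Some followed labelled traits, with an R² of 0.83 between the first and sex and 0.47 between the third and ID series. The second had 0.33 with ID series and 0.11 with Hdac2 genotype. With Hdac2 genotype the fifth had 0.19 and the eighth 0.16, and with the members' mean they had 0.03 and 0.14. With no covariate the members' median change with Hdac2 KO was 0.15 in Htt+/+ mice, 0.08 in HttQ111/+ mice and 0.14 on average, against 0.01, -0.00 and 0.01 over all genes. Then 7, 2 and 16 members were called, against 23.4, 13.5 and 31.8% of all genes, and the 16 were all higher in KO. Csf1r was at 0.14 ± 0.041 (edgeR adjusted p = 0.00987), Sall1 at 0.14 ± 0.037 (edgeR adjusted p = 0.00306), Cx3cr1 at 0.11 ± 0.041 (edgeR adjusted p = 0.0327), Tyrobp at 0.14 ± 0.038 (edgeR adjusted p = 0.00398) and Aif1 at 0.15 ± 0.050 (edgeR adjusted p = 0.0208) in that average. With ID series as the covariate the average median was 0.11, with 12 calls against 31.6% of all genes. Whether the shared rise of about this size belongs to the genotype or to variation that surrogate variables take up was not tested. Lists of other cell types moved with it: without covariates the average medians were 0.10 for 10 astrocyte genes, 0.09 for 12 oligodendrocyte genes, 0.11 for 11 endothelial and mural genes and 0.08 for 9 border macrophage genes, and their part in the result was not tested.

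Irf8 was called in 15 of the 16 alternatives in each background, at 0.43 to 0.70 in Htt+/+ and 0.47 to 0.74 in HttQ111/+ mice, and its call was lost with RNA extraction date as the covariate (0.43 ± 0.22, edgeR adjusted p = 0.299, and 0.47 ± 0.24, edgeR adjusted p = 0.339). Date and Hdac2 genotype were nearly the same split. Libraries extracted on 24 May were all Hdac2 WT (5), those of 26 May, 31 May and 3 June all Hdac2 KO (6 each), and only 25 May and 27 May held both, with 5 Hdac2 WT libraries and 1 KO library each. On 27 May Irf8 was at 7.03 CPM in the KO library and 3.60 to 5.29 in the WT libraries. On 25 May it was at 5.69 in the KO library and 3.59 to 7.70 in the WT libraries. Inpp5d was at 30.7 against 17.7 to 21.0 on 27 May and at 18.8 against 18.4 to 23.5 on 25 May, and the sum over all members at 1300 against 895 to 1019 and at 959 against 895 to 1141. Within dates the KO library was thus above the WT range on 1 day and inside it on the other. On 27 May the KO library, Htt+/+ Hdac2 KO replicate 9, was of ID series Z and all 5 WT libraries of series V. Genotype and series cannot be told apart on that day, and the median sum was 987 CPM in series V and 1128 in Z. On 25 May the KO library was of series A and the WT libraries of V or Z. The fit with extraction date as the covariate is the test across dates, and it rests on these 2 KO libraries for its contrast within dates.

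**Figure D3:**
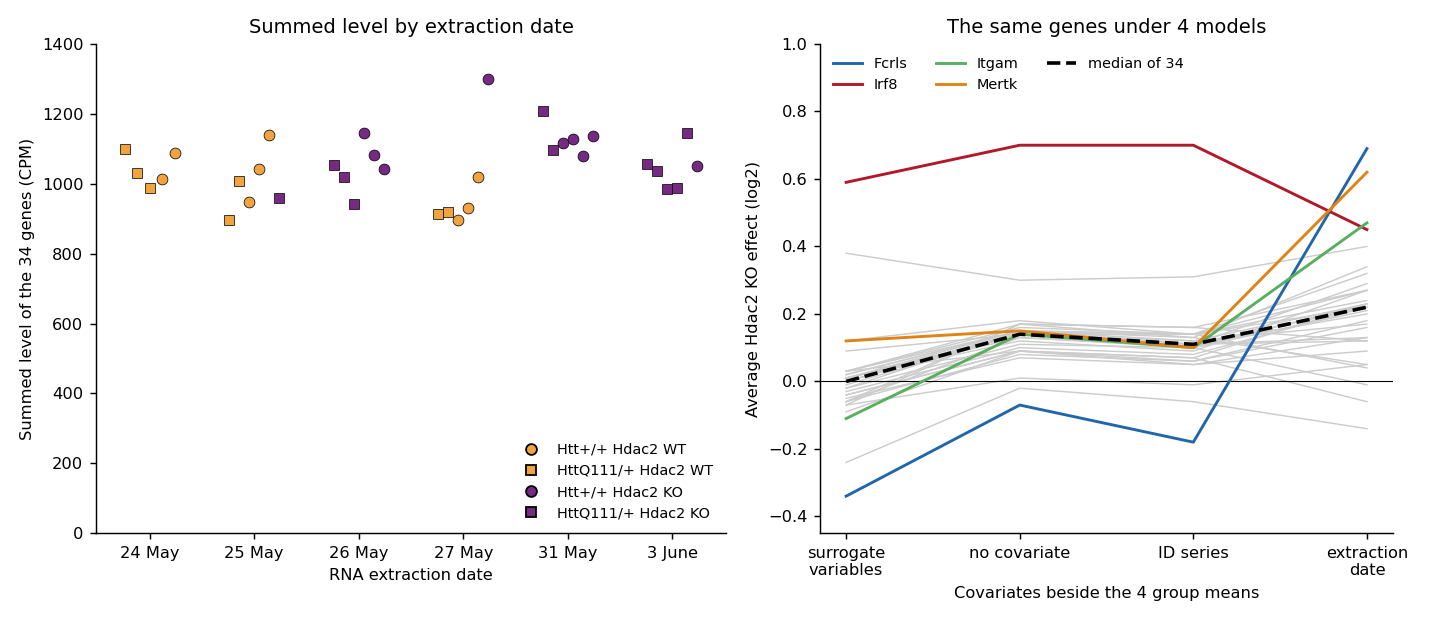
Left, summed level of the 34 microglia genes (CPM, axis from 0) per library by RNA extraction date, with orange for Hdac2 WT, purple for Hdac2 KO, circles for Htt+/+ and squares for HttQ111/+. Right, the average log2 fold change of Hdac2 KO for each of the 34 genes (lines) under 4 choices of covariate: the median (dashed) runs from 0.00 with surrogate variables to 0.14, 0.11 and 0.22, and Irf8 from 0.59 to 0.70, 0.70 and 0.45.

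The comparison of HttQ111/+ with Htt+/+ asked what the expanded allele does at this age. Among Hdac2 WT mice 0 microglia genes passed edgeR's test, against 0.403% of all genes (69 of 17133), and 0 passed in DESeq2. At an unadjusted p below 0.05 were 2 members (10.9% of all genes were), Fcgr3, a low-affinity IgG receptor, at -0.16 ± 0.073 (edgeR adjusted p = 0.418) and Inpp5d at 0.12 ± 0.047 (edgeR adjusted p = 0.30). Among Hdac2 KO mice 0 members passed in edgeR or DESeq2, against 0.00584% of all genes (1 of 17110), with 3 at an unadjusted p below 0.05 (C1qc, Inpp5d and Olfml3), where 7.52% of all genes were. Averaged over the Hdac2 genotypes 0 members passed in either tool, against 1.27% of all genes (220 of 17346). The 4 members at an unadjusted p below 0.05 were C1qa at -0.09, C1qb at -0.07, C1qc at -0.07 and Olfml3, a secreted glycoprotein, at -0.11. The C1q genes lie next to each other on chromosome 4. No direction of these is called, and 4 of 34 is near the 12.3% of all genes at an unadjusted p below 0.05.

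The interaction of both genotypes, which asks whether the Hdac2 KO effect differs between the Htt backgrounds, gave 0 members in edgeR and DESeq2, against 0.00577% of all genes (1 of 17346). Besides Inpp5d, 2 members were at an unadjusted p below 0.05 (5.63% of all genes were), Fcrls at -0.44 (edgeR adjusted p = 0.867) and Itgam at -0.16 (edgeR adjusted p = 0.875). The calls of Fcrls, Itgam, Mertk and Inpp5d in single backgrounds are therefore not shown to differ between them. HttQ111/+ Hdac2 KO mice set against Htt+/+ Hdac2 WT mice gave 1 member, Irf8 at 0.56 ± 0.11 (edgeR adjusted p = 2.84e-04), against 21.2% of all genes (3627 of 17088). This comparison shares its libraries with those above.

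Sex, tested in edgeR over 22 males and 13 females, gave 0 members against 0.0807% of all genes (14 of 17346). The 3 at an unadjusted p below 0.05, against 8.32% of all genes, were Gpr34, Fcrls and Runx1.

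Mouse IDs begin with A, V or Z, and the series differ in repeat length, at 131 to 144 CAG units in carriers of series V, 110 to 118 in A and 110 to 115 in Z. What the letters mark is not given in the sources used here. The HttQ111 effect was compared between V and the other series. In this edgeR test 0 members passed, against 0.121% of all genes (21 of 17346), and 1, Csf3r, was at an unadjusted p below 0.05, against 7.80% of all genes. The series themselves, V against A and Z over all genotypes, were compared after the values had been seen. Here 9 members were lower in V and 0 higher, against 12.3% of all genes (2137 of 17346), with a median of -0.11 against 0.00 over all genes. With extraction date added 1 of the 9, Fcrls, was still called (0.340% of all genes), and with a replicate block added 2 were, Fcrls and Itgam (4.17% of all genes).

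Fcrls and Itgam led these 9. Fcrls was at 9.61 to 22.8 CPM in the 16 libraries of V (median 15.1) and at 23.7 to 39.5 in the 19 of A and Z (median 30.0). No library of V reached the lowest of A and Z, in any genotype group. The difference was -0.91 ± 0.096 (edgeR adjusted p = 8.39e-08). Itgam was at 23.8 to 42.3 (median 32.6) in V and 37.5 to 52.9 (median 43.8) in A and Z, which overlap, with a difference of -0.42 ± 0.057 (edgeR adjusted p = 7.94e-06). Slc2a5, the fructose transporter of microglia, was at 5.39 to 8.24 (median 6.65) against 6.23 to 10.2 (median 7.87), a difference of -0.30 ± 0.052 (edgeR adjusted p = 2.75e-04). The remaining 6 were Mertk, Fcer1g, Cd53, Cd68, Laptm5 and Tyrobp, at -0.25, -0.20, -0.19, -0.15, -0.13 and -0.11. Other lists moved too, 5 of 11 endothelial and mural genes, 4 of 12 oligodendrocyte and 4 of 10 astrocyte genes being lower in V. Their part in the result was not tested.

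**Figure D4:**
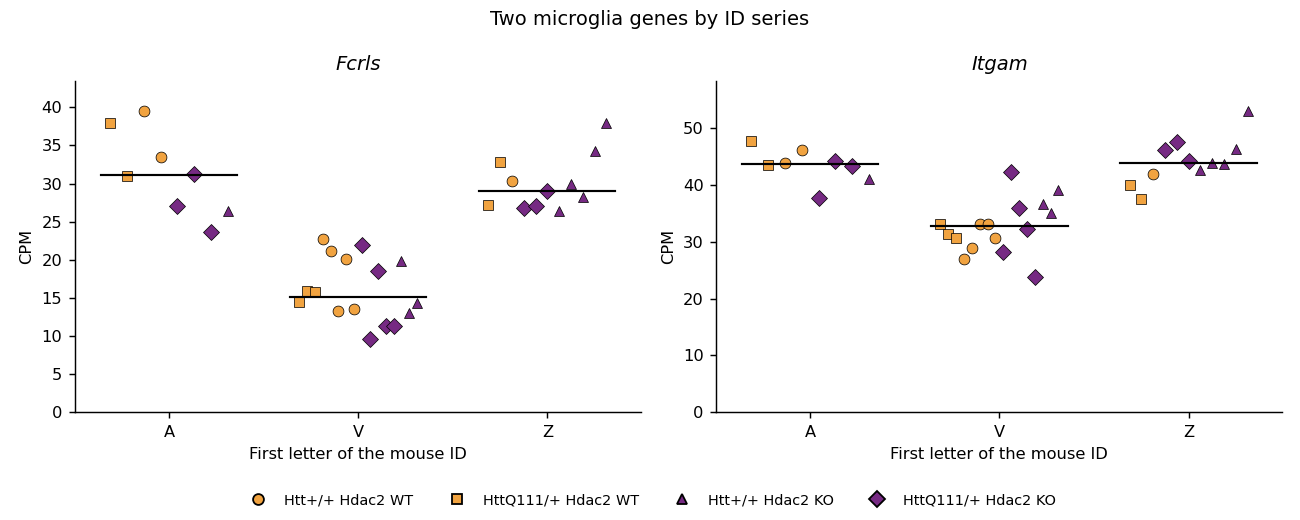
Levels (CPM, axes from 0) of Fcrls (left) and Itgam (right) by the first letter of the mouse ID, with symbols for the 4 genotype groups and lines for the median of each series. All 16 V libraries lie at or below 22.8 CPM for Fcrls and all others at or above 23.7, in each genotype.

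Ligands and other signals read by microglial receptors come mostly from neurons and astrocytes, and a fixed list of 13 was examined. With Hdac2 KO, 1 rose and 1 fell in each background, a share near the 17.8 and 16.5% of all genes called. Cx3cl1, the neuronal chemokine fractalkine that binds Cx3cr1, was at 197 to 265 CPM (median 211) in Htt+/+ Hdac2 WT, 168 to 228 (median 179) in HttQ111/+ Hdac2 WT, 153 to 191 (median 165) in Htt+/+ Hdac2 KO and 131 to 197 (median 164) in HttQ111/+ Hdac2 KO. In Htt+/+ mice each KO library lay below each WT library, and in HttQ111/+ mice the groups overlapped. It fell by 0.28 on the log2 scale (edgeR adjusted p = 8.46e-04) in Htt+/+ and by 0.23 in HttQ111/+ mice (edgeR adjusted p = 0.00158). Across the 16 alternatives Cx3cl1 was called in 15 on Htt+/+ and in 12 on HttQ111/+, and its values stayed below 0. With extraction date as the covariate its call was lost in both backgrounds. There it was at -0.26 (edgeR adjusted p = 0.267) in Htt+/+ and -0.12 (edgeR adjusted p = 0.723) in HttQ111/+ mice.

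Cd200, a neuronal surface protein that restrains microglia, moved the other way. It was at 50.1 to 63.1 CPM (median 55.6) in Htt+/+ Hdac2 WT, 60.7 to 76.2 (median 71.2) in HttQ111/+ Hdac2 WT, 59.8 to 73.3 (median 68.3) in Htt+/+ Hdac2 KO and 65.5 to 88.1 (median 72.0) in HttQ111/+ Hdac2 KO. Low libraries were those of Htt+/+ Hdac2 WT, with slight overlap. It rose by 0.32 (edgeR adjusted p = 2.82e-07) with Hdac2 KO in Htt+/+ mice, by 0.19 (edgeR adjusted p = 9.65e-05) in HttQ111/+ mice and by 0.21 (edgeR adjusted p = 0.00613) with HttQ111 in Hdac2 WT mice. Cd200 was called in 15 of 16 alternatives in Htt+/+ and 11 in HttQ111/+ mice, where extraction date as the covariate gave -0.03. Il34, the neuronal ligand of Csf1r, lay at medians of 50.5, 48.9, 50.2 and 47.4 in the 4 groups in that order, and Csf1, its other ligand, at 17.5, 18.0, 18.0 and 19.0, and neither passed with Hdac2 KO in a single background. Medians of Cd47, the signal against engulfment, were 70.1, 66.2, 55.2 and 62.0, and of Tgfb1, the cytokine that maintains microglial identity, 3.93, 3.53, 4.81 and 4.15, without a call. C4b, a complement gene expressed in glia, was lower with HttQ111 in Hdac2 WT mice (-1.11, edgeR adjusted p = 0.0394), with a call in 6 of 16 alternatives. For HttQ111 in Hdac2 KO mice it was called in 0 of 16 (-0.78 to -0.36). For the average HttQ111 effect it was called in 12 of 15 (-0.94 to -0.50). HttQ111/+ Hdac2 KO against Htt+/+ Hdac2 WT gave a call in 14 of 16 (-1.28 to -0.68). C4b has a near-identical copy, C4a, with which reads may be shared. C3 lay at 0.0998 to 2.65 CPM with no call in either background.

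**Figure D5:**
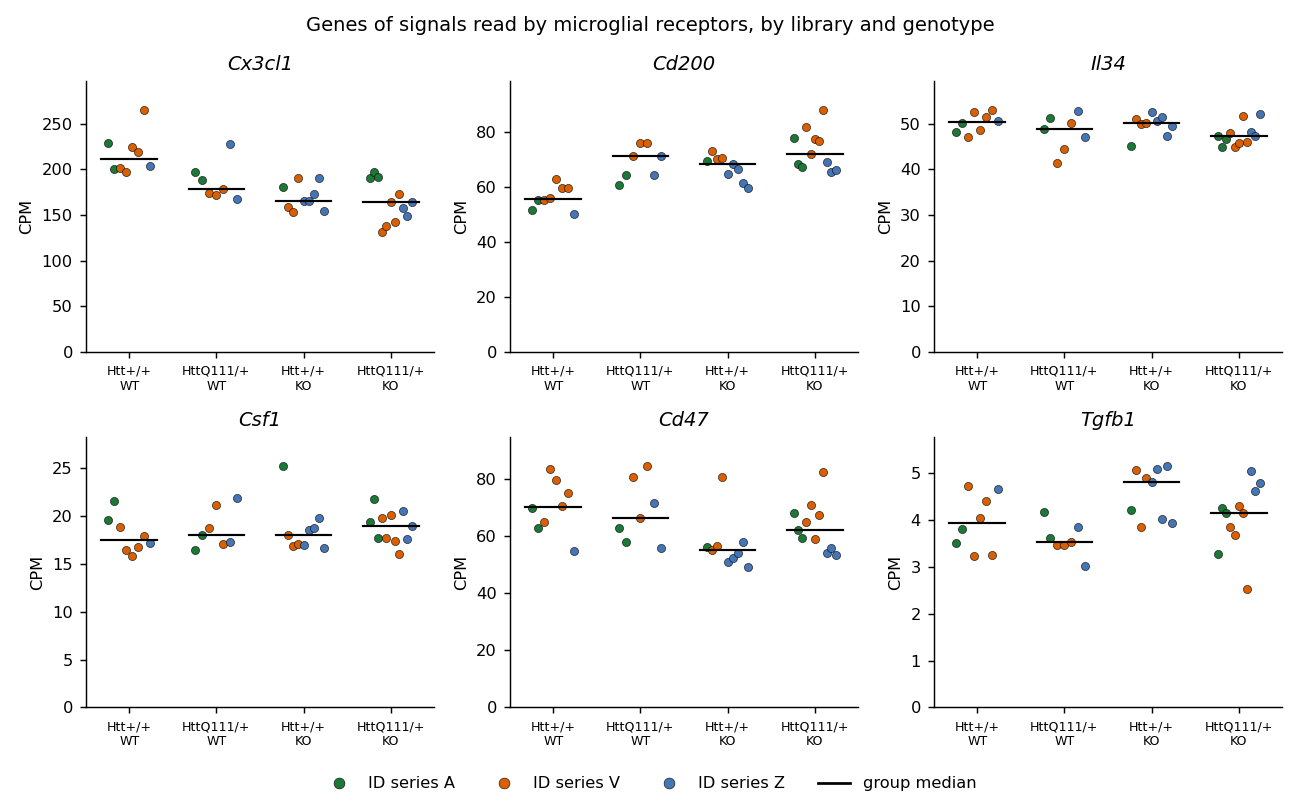
Levels (CPM, axes from 0) of 6 genes whose products microglial receptors bind, per library and genotype group. Points are coloured by the first letter of the mouse ID and lines are group medians. Cx3cl1 is lower and Cd200 higher in the KO groups than in Htt+/+ Hdac2 WT, and Il34 and Csf1 overlap throughout.

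Genes of activated states were read from fixed lists. Of 23 tested genes of disease-associated microglia, the state described in neurodegeneration models, 4 rose with Hdac2 KO in Htt+/+ mice and 0 fell, and of 22 in HttQ111/+ mice the same 4 rose. These shares are near those of all genes called, 17.8 and 16.5%, so the count says nothing particular about the list. They were Cd52, a small surface glycoprotein of leukocytes (1.15 ± 0.17 and 0.71), B2m, the light chain of MHC class I (0.36 and 0.33), and the lysosomal proteases Ctsl (0.17 and 0.13) and Ctsz (0.12 and 0.15). Cd52 lay at 0.846 to 1.83 CPM in Hdac2 WT libraries and at 1.72 to 3.23 in Hdac2 KO libraries, and B2m at 58.3 to 88.5 and 78.6 to 118, with overlap of few libraries. B2m was called in all 16 alternatives in both backgrounds, Cd52 in 16 and 14, Ctsl in 14 and 10 and Ctsz in 14 and 15. These genes are also made by other cells. The median of the list was 0.03 and 0.02, close to that of all genes, and Apoe was not called in single backgrounds. For the average Hdac2 KO effect Apoe was called in 8 of 15 alternatives (-0.14 to 0.08). Clec7a, Itgax and Cst7 had mean counts of 30, 18 and 6, so their lack of a call says little. Of inflammatory mediators 1 of 10 rose in Htt+/+ mice (Nfkbia, 0.35) and 0 of 9 in HttQ111/+ mice.

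Of 14 other microglial receptors tested with Hdac2 KO in Htt+/+ mice, 1 fell and 0 rose, against 17.8% of all genes called. Of 15 in HttQ111/+ mice, 3 fell and 0 rose, against 16.5%. Tyro3, a kinase of the Mertk family that neurons express strongly, fell by 0.37 and 0.34. Sirpa and Cd33 fell by 0.15 and 0.19 in HttQ111/+ mice. These counts are not read as results about microglia, and which cells the RNA came from was not tested.

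Markers of related cells were measured beside these results. Border macrophage genes summed to 19.7 to 28.7 CPM in Htt+/+ Hdac2 WT, 17.4 to 26.2 in HttQ111/+ Hdac2 WT, 19.8 to 34.4 in Htt+/+ Hdac2 KO and 16.0 to 28.9 in HttQ111/+ Hdac2 KO, 8 of the 12 being tested in each KO comparison. There 0 passed in Htt+/+ mice and 1 (Stab1, -0.23) in HttQ111/+ mice, against 17.8 and 16.5% of all genes. Mrc1 was at 1.93 to 4.34 CPM and Cd163 at 1.63 to 2.90, while Cd209f, Lyve1 and Pf4 were below 1 in every library. Of 19 blood leukocyte genes 4 and 3 were tested, and Cd4 alone passed (-0.53 and -0.48). Cd4 had a mean count of 5693, against 3 for Cd3e and 2 for Cd3d, and which cells its RNA came from was not tested. Cd3d and Cd3e, which define T cells, were at 0 in some libraries of each group and at most at 0.191 and 0.190 CPM and Ccr2 of monocytes at most at 0.480. Blood markers of erythroid cells, 5 of 5 tested, gave 0 calls in both comparisons. Astrocyte genes gave 1 call of 10 in each (Slc1a2, -0.19 and -0.18), and 12 oligodendrocyte and 11 endothelial and mural genes gave 0. Set beside the shares of 17.8 and 16.5% of all genes, the counts of these short lists are not read as results about the cells. Ppp1r1b, a marker of MSNs of which the transgene carries part, rose in both (0.24 and 0.31). Of its list of 14 MSN genes, 2 rose and 2 fell in Htt+/+ mice (median -0.03). In HttQ111/+ mice 2 rose and 0 fell (median 0.01). One marker is thus not read as a rise of the list.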

How the data were processed

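The deposited values were whole-number counts per gene for 35 libraries. Per the labels and the study's methods, the authors made stranded mRNA libraries, aligned reads to GRCm38 with GSNAP and used bedtools to count uniquely aligned reads in the full interval of each Ensembl gene, introns included. They left out 1 further library. Whether strand was used is not stated. A check on Med12l, in the report, bears on it.

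The fit used R 4.3.3, edgeR 4.0.16 (older form of the quasi-likelihood test), sva 3.50.0, limma 3.58.1 and DESeq2 1.42.0. From the entries, 92 ERCC spike-ins, 6152 genes of at most 250 nt and 2 mitochondrial rRNA genes were dropped, leaving 32863. Tested genes had 6 or more counts in all libraries of 1 or more compared groups. Counts were scaled by TMM, surrogate variables came from svaseq, p-values were Benjamini-Hochberg adjusted across the tested genes, and the SE was derived from the F statistic. Sex and the ID series were fitted without surrogate variables. The procedure was tested on simulated data.

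The members and lists were chosen with earlier results of these data known. Named were all members past the threshold, 12 defining markers, 9 signal and homeostatic genes and up to 4 called genes of each list. Some list genes, and the results that need them, are not reported here. Genes at the ends of a range and the ID series comparison were picked with their values in view. Replicates are separate mice. Replicate numbers shared between groups did not pair libraries: same-number pairs had correlations of -0.206 to 0.289 (median 0.0418, 45 pairs, 15 over 0.1). No 2 libraries of a group held the same counts. Alternatives covered covariates, scaling, test, filter, libraries and a replicate block.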

Additional observations from a re-analysis of the deposited data

Results flagged for a closer look

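Of 105 combinations of a group with a member or the members' sum, tested for a library far from the rest, 10 were marked, where chance marks about 5%. The 105 do not cover every member in all 4 groups. No mark lay in HttQ111/+ Hdac2 KO. Which combinations of that group were tested, if any, is not stated, so its lack of marks is not read as a result. Members move together between libraries (50.3% of their variance in the first component). The marks are therefore not independent, and their number is not read as an excess. Htt+/+ Hdac2 KO replicate 9 was marked 4 times. It held 97.1 CPM of Mertk (next 59.2), 194 of Csf1r (next 171), 52.3 of Selplg (next 41.2) and a summed level of the 34 genes of 1300 (next 1144). It is the single KO library extracted on 27 May and was the highest of all libraries for 14 members. Irf8 was marked in Htt+/+ Hdac2 WT replicate 8 at 7.70 (next 5.29) and in Htt+/+ Hdac2 KO replicate 4 at 11.1 (next 8.75). Gpr34 in Htt+/+ Hdac2 WT replicate 9 was at 26.8 (next 23.7). HttQ111/+ Hdac2 WT replicate 1 was high for Fcgr3 at 17.2 (next 14.4) and for Ctss at 108 (next 96.7). Aif1 was low in Htt+/+ Hdac2 WT replicate 5 at 5.75 (next 6.39). The cause of these values was not tested.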

How the results depend on the processing

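Counts of called members with Hdac2 KO in Htt+/+ (2), in HttQ111/+ (4) and on average (5) depended most on covariates. Without surrogate variables they were 7, 2 and 16, with sex 5, 2 and 16, with extraction date 1, 0 and 1, and with a fit to only the compared libraries 13 and 2. ID series gave 12 on average. Males alone gave 2 in HttQ111/+ and 1 on average, no count filter 3 and leaving out Htt+/+ Hdac2 WT replicate 8 gave 2 on average. HttQ111/+ Hdac2 KO against Htt+/+ Hdac2 WT (1) gave 0 with extraction date, 3 with ID series or only the compared libraries, and 2 with DESeq2, sex, no surrogate variables or the stricter filter.

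A replicate block in place of the surrogate variables gave 16 called members in Htt+/+, 1 in HttQ111/+, 11 on average, 2 in HttQ111/+ Hdac2 KO against Htt+/+ Hdac2 WT and 2 for HttQ111 in Hdac2 KO, where the main count was 0. Of 35 libraries 8 correlated best with their own number. The ID series count of 9 was 1 with extraction date and 2 with the replicate block added, both chosen after seeing the data.

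In HttQ111/+ mice Itgam turned positive with extraction date (0.40), without surrogate variables (0.03), with ID series (0.04) and with sex (0.05), Fcrls with extraction date (0.58), and Mertk was at -0.01 with the block. On average Fcrls was at 0.69 with extraction date. The cause was not tested. Counts of called members for HttQ111 in Hdac2 WT, the interaction, the average HttQ111 effect, sex and HttQ111 by ID series stayed at 0.

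Limits are the near-complete overlap of extraction date with Hdac2 genotype, the bulk tissue, and low counts for Runx1, Spi1 and C3ar1 (SE of 0.17, 0.13 and 0.13 for Hdac2 KO in Htt+/+).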
